A study of Mus musculus with 49 samples.

Results

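The genes described here encode the extracellular matrix, from the collagens to the proteins that organise, crosslink and decorate them. The set was a list of 54 gene symbols, and a gene entered where the array annotation gave a probe set to that symbol alone. Each gene was represented by the probe set with the highest mean over all 49 arrays. In this way 49 of the 54 genes were followed, out of 8251 genes tested in all. Plod1, Plod2, Fbn1, Efemp2 and Thbs1 were not analysed here, Thbs1 because its probe set is annotated to another gene as well.

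The arrays come from a time course of arthritis that was set off in mice by serum of K/BxN mice, whose autoantibodies inflame the joints of the recipient. Recipients were male B6 mice aged 6 weeks, and the day is counted from the first injection of serum. The 19 arrays of whole ankle cover days 0, 1, 3, 7, 12 and 18 with 4, 2, 3, 4, 3 and 3 arrays, the 13 arrays of cells from the synovial fluid cover days 3, 7, 12 and 18 with 3, 4, 3 and 3, and the 17 arrays of blood leukocytes cover the same 6 days as the ankle with 3 each, or 2 at day 18. The labels call only the blood samples biological replicates, so that for ankle and fluid the p-values measure a spread between samples that may be technical. RNA of the ankle was amplified in 2 rounds, and its extraction is given as SDS and urea in the sample descriptions but as Trizol in the protocol field. In the fluid, the first replicate of day 3 and that of day 7 were obtained by washing out the ankles, the others at dissection. Fluid day 7 replicate 4, fluid day 18 replicate 3 and blood day 3 replicate 3 have a description of their own that gives 2 amplification rounds.

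Collagen chains are modified and folded in the endoplasmic reticulum with the help of the chaperone Serpinh1, trimmed outside the cell by proteases that Pcolce enhances, and joined to one another by lysyl oxidases such as Lox. Small leucine-rich proteoglycans such as decorin, lumican and fibromodulin bind the fibrils and shape their width, laminins and type IV collagen build the basement membrane, and matricellular proteins such as tenascin-C and periostin appear where tissue is remodelled. In a joint most of these proteins are made by fibroblasts of the synovium and tendon and by chondrocytes, whereas leukocytes make few of them.

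Array medians lay between 57.7 and 64.1 on the linear scale, and arrays of the same group had correlations of 0.941 to 0.995 over the probe sets. Intensities are given below on the log2 scale, and a level counts as background below 6.85, the 95th percentile of 34 negative control probe sets. Liver transcripts stood out in replicate 1 of ankle days 0, 7 and 12, where albumin (Alb) reached 8.95, 8.41 and 10.65. In replicate 1 of ankle day 1 it read 6.39, below background but above the 4.62 of the other day 1 array. Day 0 replicate 1 was also the lowest of the 4 day 0 ankle arrays for 29 of the 49 matrix genes, and day 0 replicate 2, whose description opens with another short name than its title, was the highest for 28. Ankle arrays carried skeletal muscle markers (9 of 13 above background at every day) and fluid and blood arrays leukocyte markers (8 of 8 in fluid at every day).

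The array detected most of the matrix genes in ankle, fewer in fluid cells and few in blood. Group means above background were found for 36 to 40 of the 49 genes in ankle, for 23 to 30 in fluid and for 10 to 14 in blood. All genes of the array were above background at 38.3% to 39.7%, in whatever tissue. The 10 genes above background at all 6 blood days were Col1a1, Col5a1, Col18a1, Lamc1, Hspg2, Bgn, Pcolce, Eln, Fbln1 and Fn1. At the other end, 9 genes were above background in no group: Col11a1, Col12a1, Col15a1, Nid1, Nid2, Omd, Loxl1, Thbs2 and Ecm1. A fold is given below only where the means on both sides lay above background, since a difference measured from below it understates the change.

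The fluid gained detectable matrix genes as arthritis went on. At day 3 there were 23 above background. The basement membrane laminins Lama4 and Lamb1, the proteoglycan Lum, the crosslinking enzyme Lox, the microfibril protein Mfap5 and tenascin-C (Tnc) passed it by day 7, and periostin (Postn) passed it at day 12 alone, with a mean of 7.27.

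The ankle comparisons ask how matrix transcripts of the whole joint moved away from day 0. Within the first 3 days no difference from day 0 passed the test. At day 1, limma called 0 of the 49 genes, 0 had an unadjusted p under 0.05, and 0% of all genes were called. At day 3 it again called 0, against 0.23% of all genes (0.182% higher and 0.0485% lower), and 3 genes had an unadjusted p under 0.05: Col15a1 (a difference of -0.58), Loxl1 (-0.47) and Lamb1 (0.54). For Tnc the probe set used differed by 0.22 at day 3 and the other one by 1.08, from 5.87 to 6.95. The other one was not tested on its own.

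At day 7 the ankle showed a rise of 8 matrix genes and a fall of 4, which is 24.5% of the 49 against 6.73% of all genes (3.09% higher and 3.64% lower). The genes that rose were Tnc, Postn, Lox, Fbln2, Vcan, Lamb1, Serpinh1 and Thbs2, and those that fell were Tnxb, Lamb2, Fmod and Lama2. The median difference over the 49 genes was 0.11, beside 0.00 over all genes. These counts are over all genes tested, with limma and Benjamini-Hochberg adjustment, and the comparisons with day 0 share its 4 arrays. In whole tissue, a change in the number of the cells that make a transcript and a change in RNA per cell cannot be told apart.

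**Figure D1:**
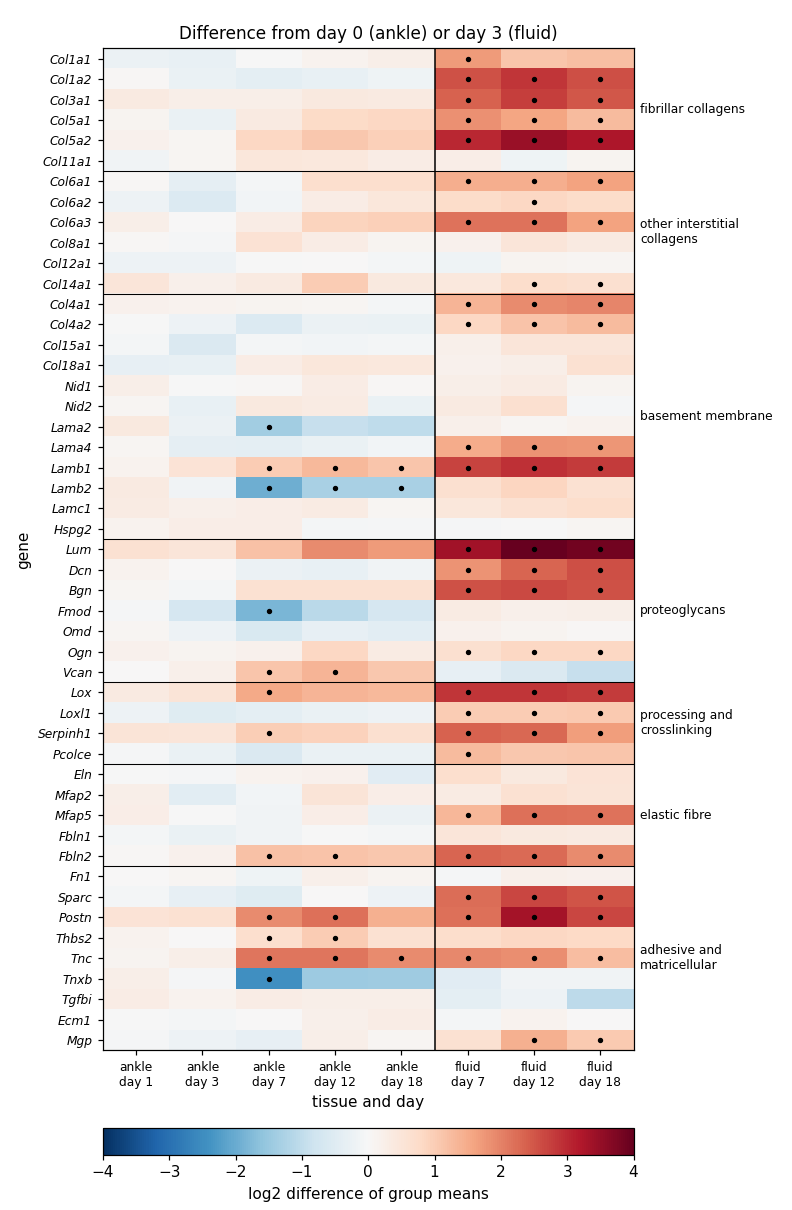
Difference of group means on the log2 scale (colour) for each of the 49 matrix genes (rows, by role), in ankle at 5 days against day 0 and in fluid cells at 3 days against day 3 (columns). Dots mark differences past an adjusted p of 0.05: ankle holds 12 at day 7, 7 at day 12 and 3 at day 18, and fluid holds 24, 25 and 24.

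Tenascin-C, a large glycoprotein that loosens cell adhesion and is characteristic of healing and inflamed tissue, was read at 5.59, 6.20, 5.72 and 5.65 on the 4 day 0 arrays and at 8.08, 8.44, 7.47 and 7.75 at day 7. The groups did not overlap, and day 0 lay below background. The difference was 2.14 ± 0.21 (limma standard error, adjusted p = 3.8e-06), and the other Tnc probe set gave 2.84. Tnc was still high at day 12 (7.74, 8.12 and 7.97, a difference of 2.15 ± 0.22, limma adjusted p = 1.13e-05) and at day 18 (7.51, 7.43 and 8.08, a difference of 1.88 ± 0.22, limma adjusted p = 7.66e-05). It passed the test in every alternative run at the 3 days, including all that left out 1 array.

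Periostin, a matricellular protein that binds collagen and is made by fibroblasts and osteoblasts, stood at 7.13, 9.50, 9.04 and 8.58 at day 0 and at 10.06, 10.91, 10.36 and 10.50 at day 7. Every day 7 array was above every day 0 array, and day 0 replicate 1 was the low one. The rise was 1.89 ± 0.38 (3.71-fold, limma adjusted p = 0.00461), and 1.41 without that array. At day 12 the arrays read 10.59, 11.07 and 10.65, a difference of 2.20 ± 0.41 (4.6-fold, limma adjusted p = 0.00475), or 1.72 without day 0 replicate 1. At day 18 the readings of 10.23, 10.17 and 9.52 were again above all of day 0, but the difference of 1.41 ± 0.41 did not pass (limma adjusted p = 0.0997).

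Fibulin-2 (Fbln2), a protein of elastic fibres and basement membranes, was tight at day 0, at 9.32, 9.28, 9.23 and 9.06, and stood at 10.86, 10.89, 9.63 and 10.22 at day 7. The groups did not overlap, with replicate 3 closest to day 0. The rise was 1.18 ± 0.27 (2.27-fold, limma adjusted p = 0.0117). Laminin beta 1 (Lamb1), a chain of laminins found widely in embryonic and adult basement membranes, went from 8.19, 8.55, 8.31 and 7.89 to 9.52, 9.18, 9.56 and 8.74. Here too the day 7 arrays were all above day 0, by 1.02 ± 0.18 on average (2.02-fold, limma adjusted p = 0.00155). The other Lamb1 probe set gave 1.05.

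Versican (Vcan), a large proteoglycan that holds water and hyaluronan in provisional matrix, was read at 7.14, 8.91, 7.92 and 8.49 at day 0 and at 8.65, 9.60, 9.35 and 9.32 at day 7. Day 0 replicate 2 reached into the day 7 range. The rise of 1.11 ± 0.31 (2.17-fold, limma adjusted p = 0.0349) fell to 0.79 without day 0 replicate 1 (limma adjusted p = 0.0997), and 5 of the 8 fits with 1 array left out lost the call. Lox, which oxidises lysines of collagen and elastin so that they can crosslink, stood at 4.79, 6.45, 5.69 and 5.79 and then at 6.21, 7.84, 6.86 and 7.89. The lowest day 7 array was within the day 0 range, and day 0 was below background. Its rise of 1.52 ± 0.38 (limma adjusted p = 0.022) was 1.22 without day 0 replicate 1, which no longer passed (limma adjusted p = 0.0693), and the other Lox probe set gave 0.65. Serpinh1, the collagen chaperone, rose by 0.98 ± 0.29 (1.98-fold, limma adjusted p = 0.0471), a call that 6 of the 8 fits with 1 array left out lost. Thrombospondin 2 (Thbs2), which restrains vessel growth, rose by 0.68 ± 0.15 (limma adjusted p = 0.00972) but from 4.01 to 4.70, under background throughout.

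Tenascin-X (Tnxb), a tenascin of tendon, dermis and the sheaths of muscle that spaces collagen fibrils, moved opposite to Tnc. It stood at 12.78, 12.05, 11.12 and 11.55 at day 0 and at 10.85, 9.76, 9.0 and 8.14 at day 7. All day 7 arrays were below all day 0 arrays, though the arrays within each day were widely spread. The fall was -2.44 ± 0.49 (5.43-fold lower, limma adjusted p = 0.00427), and the other Tnxb probe set gave -2.42. Without day 0 replicate 1, its highest array, the difference was -2.14.

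Laminin beta 2 (Lamb2), the laminin chain of neuromuscular junctions and of vessel and muscle basement membranes, fell while Lamb1 rose. The day 0 arrays read 9.99, 10.26, 9.76 and 10.01, and the day 7 arrays 8.36, 8.66, 7.89 and 7.3. The groups lay well apart, with a difference of -1.95 ± 0.30 (3.87-fold lower, limma adjusted p = 0.000639). Laminin alpha 2 (Lama2), the laminin chain typical of skeletal muscle, went from 8.39, 8.72, 8.65 and 7.69 to 7.70, 7.35, 6.68 and 6.19. Day 0 replicate 4 and day 7 replicate 1 met in the middle. The fall was -1.38 ± 0.34 (2.61-fold lower, limma adjusted p = 0.0186), and 3 of the 8 fits with 1 array left out did not call it.

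Fibromodulin (Fmod), a proteoglycan of tendon and cartilage collagen, stood at 10.40, 10.67, 11.04 and 10.90 at day 0 and at 9.13, 9.63, 8.20 and 8.69 at day 7. The ranges were separate, and the fall was -1.84 ± 0.29 (3.58-fold lower, limma adjusted p = 0.000764). The other Fmod probe set, nearer to background, fell by 0.52.

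**Figure D2:**
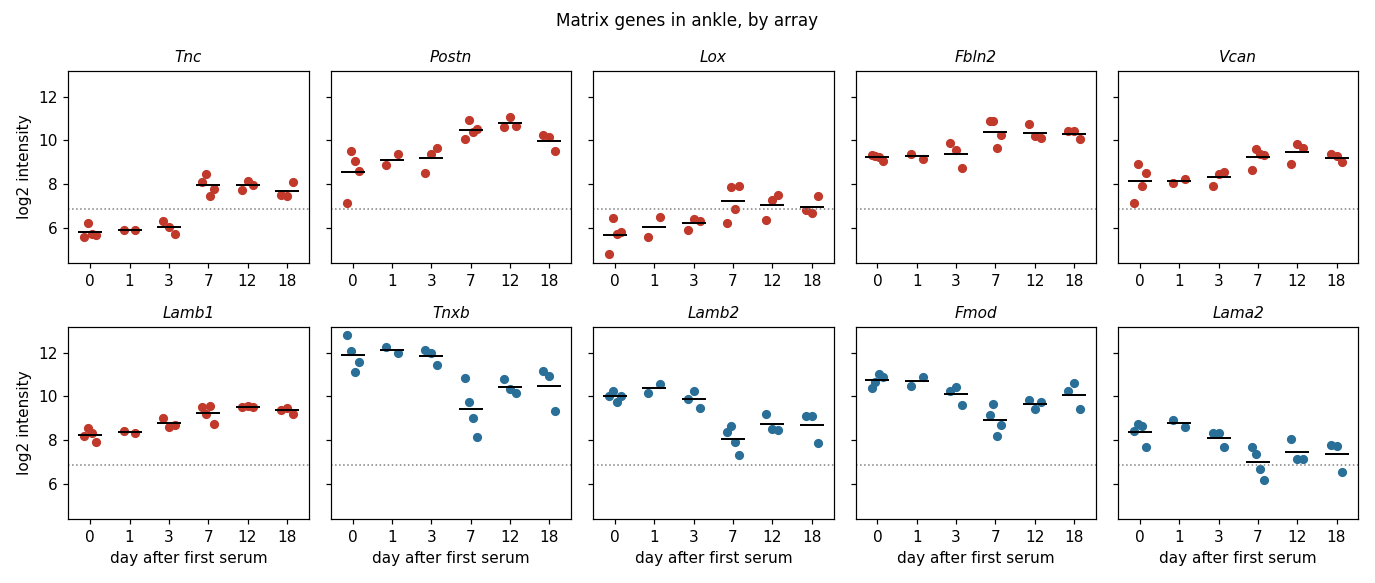
Log2 intensity in ankle (vertical axis) of 6 genes that rose at day 7 (red) and of the 4 that fell (blue), by day after the first serum (horizontal axis). Each point is 1 array, bars are group means and the dotted line is background at 6.85. Tnc lies between 5.59 and 6.20 at day 0 and between 7.47 and 8.44 at day 7, and Lamb2 between 9.76 and 10.26 and then between 7.3 and 8.66.

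By role, the calls at day 7 lay outside the interstitial collagens. None of the 6 fibrillar collagens and none of the 6 other interstitial collagens passed the test at day 7, 12 or 18. This depended on day 0 replicate 2 and, for Col5a2 at least, on the settings given below. Without that array limma called Col5a2 at days 7 and 12 (1.07 and 1.31, adjusted p = 0.0326 and 0.0202), Col5a1 at days 12 and 18 (0.93 and 1.00, adjusted p = 0.0154 and 0.016) and Col14a1 at day 12 (1.3, adjusted p = 0.0254). The basement membrane group had 1 higher and 2 lower of 12, the proteoglycans 1 and 1 of 7, the processing and crosslinking genes 2 higher of 4, the elastic fibre genes 1 higher of 5, and the adhesive and matricellular genes 3 higher and 1 lower of 9.

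The collagens with the highest ankle signal in their roles were not called at day 7. Col1a2, a chain of type I collagen, was read at 12.28, 12.44, 12.97 and 12.65 at day 0 and at 12.61, 12.39, 11.28 and 12.47 at day 7. Its day 7 replicate 3, at 11.28, lay below all of day 0. Col6a1, a chain of the beaded type VI filaments around cells, stood at 8.94, 10.34, 9.95 and 10.01 and then at 9.14, 10.53, 9.51 and 9.72. Col4a1, of the basement membrane network, stood at 11.29, 10.84, 10.76 and 10.80 and then at 11.54, 10.94, 10.73 and 10.91. The arrays of both days overlapped for all 3 genes, and limma's adjusted p at day 7 was 0.458 for Col1a2. The fibrillar collagen nearest to the threshold was Col5a2, which controls fibril width together with Col5a1. Its differences of 0.83, 1.07 and 0.94 at days 7, 12 and 18 had limma adjusted p-values of 0.122, 0.0875 and 0.191. In the fit of all 49 arrays these were 0.0182, 0.00622 and 0.0239, and with quantile normalization done anew the first 2 were 0.0493 and 0.0436. The probe sets of a collagen did not always give the same size: for Col3a1 the day 12 differences were 0.40, 0.49 and 1.35. For Col5a1 the probe set used gave 0.36 at day 7 and 0.75 at day 12, and the other one 1.04 and 1.14.

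Highly expressed members of the other roles were also not called at day 7. Decorin (Dcn), which coats collagen fibrils, was read at 12.83, 12.64, 12.90 and 12.90 at day 0 and at 12.70, 12.61, 12.24 and 12.82 at day 7. Pcolce stood at 9.79, 10.13, 10.11 and 10.13 and then at 9.96, 9.83, 8.85 and 9.17. Sparc, a collagen-binding matricellular protein, stood at 11.20, 11.90, 12.28 and 12.01 and then at 11.67, 11.44, 11.49 and 10.87. The arrays of both days overlapped for each of them, and the differences were -0.23 ± 0.16, -0.59 ± 0.26 and -0.48 ± 0.22, with limma adjusted p-values of 0.537, 0.224 and 0.229. Without day 0 replicate 1, its lowest day 0 array, Sparc was called lower (-0.70, limma adjusted p = 0.0413).

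At day 12, 6 matrix genes were higher than at day 0 and 1 was lower, 14.3% of the 49 against 3.24% of all genes (1.87% higher and 1.37% lower). All 7 had been called in the same direction at day 7: Tnc, Postn, Vcan, Fbln2, Lamb1, Thbs2 and, lower, Lamb2. Lamb1 was tight at 9.51, 9.57 and 9.49, above every day 0 array, by 1.29 ± 0.19 (2.45-fold, limma adjusted p = 0.000702). Vcan stood at 8.92, 9.83 and 9.64, the first of them level with the highest day 0 array at 8.91, with a difference of 1.35 ± 0.33 (2.54-fold, limma adjusted p = 0.0297). This call was lost in 4 of the 7 fits with 1 array left out (1.02 without day 0 replicate 1, limma adjusted p = 0.0708), and with the muscle or beta-actin covariate described below (1.47 and 1.48, limma adjusted p = 0.0525 and 0.144). The Fbln2 rise of 1.13 ± 0.29 (2.18-fold, limma adjusted p = 0.0399) was lost in 6 of the 7 (1.16 without day 0 replicate 1, limma adjusted p = 0.0636), and was 0.69 with the muscle covariate (limma adjusted p = 0.216). Lamb2 stood at 9.17, 8.51 and 8.45, below all of day 0 and less far than at day 7, by -1.29 ± 0.33 (2.45-fold lower, limma adjusted p = 0.0359). It too was lost in 6 of the 7, among them all that left out a day 0 array (-1.3 and -1.21 without replicates 1 and 2, limma adjusted p = 0.0657 and 0.0512), and with the beta-actin covariate (-1.32, limma adjusted p = 0.207).

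Lumican (Lum) showed the largest difference among the genes not called at day 12. Its arrays read 10.48, 10.99 and 11.23, against 7.42, 10.35, 9.12 and 9.13 at day 0. The groups did not overlap, but day 0 spread over a wide range, and the difference of 1.89 ± 0.58 did not pass (limma adjusted p = 0.0866). The count at day 12 rested on single arrays: 4 genes were called without day 0 replicate 1, day 0 replicate 3, day 12 replicate 2 or day 12 replicate 3, and 14 without day 0 replicate 2, among them Lum (2.34, limma adjusted p = 0.0178). Centring each array on its median changed the split from 6 higher and 1 lower to 5 and 0.

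At day 18 the matrix genes called were Tnc and Lamb1, higher, and Lamb2, lower, which is 6.12% of the 49 against 2.01% of all genes (1.13% higher and 0.885% lower). Lamb1 stood at 9.39, 9.45 and 9.21, above all of day 0, by 1.12 ± 0.19 (2.17-fold, limma adjusted p = 0.00331). Lamb2 stood at 9.10, 9.11 and 7.86, again below all of day 0. Its difference of -1.31 ± 0.33 (2.49-fold lower, limma adjusted p = 0.0448) was lost in each of the 7 fits that left out 1 array, and was -0.90 (limma adjusted p = 0.349) without day 18 replicate 3. With arrays centred on their medians the split was 2 higher and 0 lower, and without day 0 replicate 2 there were 6 calls, Tnc, Lamb1, Col5a1, Lum, Postn and Vcan.

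Between day 18 and day 7 no matrix gene passed the test. Limma called 0 of 49, against 0.0606% of all genes, and 4 had an unadjusted p under 0.05. Fmod went from a mean of 8.91 to 10.07, a difference of 1.16 ± 0.32 (limma adjusted p = 0.425), and Tnxb from 9.44 to 10.46, a difference of 1.03 ± 0.53.

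Measures of tissue make-up and RNA moved in the ankle at the same time. Of the skeletal muscle markers, 0 of 13 passed at day 7, with a median difference of -0.51, and their summed log2 signal ranged from 13.54 to 14.79 at day 0 and from 12.25 to 14.50 at day 7. With the mean muscle signal as a covariate the day 7 differences were -2.19 for Lamb2, -1.57 for Lama2, -2.86 for Tnxb and -2.09 for Fmod. Serpinh1 came to 0.72 and did not pass (limma adjusted p = 0.117). That mean was taken over all 13 markers, of which Myh4, Myh2, Tnni2 and Mb lay below background at every ankle day. Neutrophil markers rose, 4 of 6 at day 7, as did 4 of 8 leukocyte markers and 1 of 7 fibroblast markers. The latter was Pdpn, below background at days 0 and 7. Among 7 cartilage markers Acan rose (1.79) and Chad fell (-1.04). Of 8 macrophage markers Msr1 rose (1.29) and the list's median difference was -0.15. Of 4 adipocyte markers Retn fell (-1.34), to below background, and their summed log2 signal ran from 10.58 to 11.58 at day 0, from 9.55 to 11.23 at day 7 and from 9.24 to 10.03 at day 18, when Lpl fell as well (-1.15). The part of these in the matrix changes was not tested. The log2 ratio of the 3 prime to the 5 prime beta-actin probe sets, a sign of shortened RNA, ran from 2.73 to 3.50 at day 0 and from 3.34 to 3.83 at day 7. With this ratio as a covariate 7 of the 12 day 7 calls were made, Tnc, Postn, Lamb1, Thbs2, Lamb2, Tnxb and Fmod, while Fbln2, Vcan, Lox, Serpinh1 and Lama2 did not pass. Their differences were then 1.04, 1.22, 1.70, 1.09 and -1.47, close to those without the covariate. The part of shortened RNA in the matrix changes was not tested.

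Other genes of the matrix, and genes that act on it, were counted in the ankle at day 7. Of 13 further collagens 0 were called (limma, median 0.05), and of 10 further collagen enzymes 0 were called (median 0.01). Among 15 ligands and regulators of TGF-beta, the growth factor that drives matrix synthesis in fibroblasts, 2 fell: Ccn2, a matricellular target of TGF-beta, by 1.68, and Ltbp4, which stores latent TGF-beta in the matrix, by 1.41. Of 18 matrix receptors, Itgav (0.62), Cd44 (0.52) and Sdc1 (0.49) rose and Sdc2 (-0.76) fell. Cd44, the hyaluronan receptor, was below background at both days.

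The tenascins and the laminin beta chains each supplied a gene that rose and a gene that fell in the ankle, and their promoters are shown for that reason. Each sequence is the 250 bases before the most upstream annotated start, from RefSeq on build GRCm38.p6, read 5′ to 3′ on the strand of the gene. The windows are chr4:64047016-64047265 (minus strand) for Tnc, chr17:34670285-34670534 (plus) for Tnxb, chr12:31265043-31265292 (plus) for Lamb1 and chr9:108479612-108479861 (plus) for Lamb2. Capitals mark the matches to the 4 motifs searched on both strands, which were the AP-1 motif TGANTCA, the TATA-type motif TATAAA, the motif CCAAT and the GC box GGGCGG, which reads as CCGCCC on the other strand. No match overlapped another.
Tnc: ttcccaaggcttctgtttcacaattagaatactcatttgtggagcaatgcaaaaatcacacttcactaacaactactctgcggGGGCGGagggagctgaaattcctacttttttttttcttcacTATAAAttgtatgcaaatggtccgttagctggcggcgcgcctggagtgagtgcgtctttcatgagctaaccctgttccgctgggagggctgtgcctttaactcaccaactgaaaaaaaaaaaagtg
Tnxb: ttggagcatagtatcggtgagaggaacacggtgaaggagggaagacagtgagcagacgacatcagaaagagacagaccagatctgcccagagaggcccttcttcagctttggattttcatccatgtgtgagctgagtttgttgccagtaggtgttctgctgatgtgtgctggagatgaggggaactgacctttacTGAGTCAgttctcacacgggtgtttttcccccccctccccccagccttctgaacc
Lamb1: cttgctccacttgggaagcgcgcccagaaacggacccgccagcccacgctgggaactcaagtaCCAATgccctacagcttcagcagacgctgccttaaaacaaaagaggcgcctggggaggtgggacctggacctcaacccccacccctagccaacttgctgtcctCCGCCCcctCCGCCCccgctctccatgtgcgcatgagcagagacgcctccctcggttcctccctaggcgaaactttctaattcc
Lamb2: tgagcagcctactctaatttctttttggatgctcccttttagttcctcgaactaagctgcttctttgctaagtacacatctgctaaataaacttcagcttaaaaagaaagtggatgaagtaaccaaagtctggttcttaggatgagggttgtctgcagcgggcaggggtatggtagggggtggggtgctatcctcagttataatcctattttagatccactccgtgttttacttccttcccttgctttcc
Counted from the start, the Tnc window held a GC box at -167 and a TATAAA at -126, the Tnxb window an AP-1 match at -55, and the Lamb1 window a CCAAT at -187 and GC boxes on the other strand at -84 and -75. The Lamb2 window held none of the 4 motifs.

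A window of this length was used for 34 of the 49 genes. Lox was left out by its chromosome, although the 27025 windows of all genes were not filtered in this way. Nor were those windows limited to the 8251 genes tested on the array. A GC box stood in 18 of the 34 (52.9%), against 33% of all 27025 windows, a CCAAT in 10 (29.4% against 34.5%), a TATAAA in 5 (14.7% against 13%) and an AP-1 match in 3 (8.82% against 6.85%). Among the 8 genes that rose in ankle at any day, 5 of the 7 whose window was used held a GC box. Among the 4 that fell 0 did. Of the windows of these 11 genes, that of Tnxb alone held an AP-1 match. A match describes letters and not a bound site, and these shares were not tested.

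The fluid comparisons ask how the cells of the joint space changed after day 3, the first day at which fluid was sampled. Matrix genes rose broadly and in 1 direction. At day 7, 24 of the 49 genes were higher and 0 lower, against 2.56% of all genes (2.17% higher and 0.388% lower). At day 12 it was 25 and 0, against 2.7% (2.42% and 0.279%), and at day 18 it was 24 and 0, against 3.19% (2.28% and 0.909%). The 3 comparisons share the 3 day 3 arrays, and 22 genes were called at all 3 days. Among these, the day 18 calls of Col5a1 and Col6a3 were lost in 5 and 2 of the 6 fits with 1 array left out. The day 7 call of Col4a2 was lost in 2 of 7. Without day 7 replicate 4 and day 18 replicate 3, the arrays with a description of their own, 23, 24 and 18 genes were called, all higher. Dcn and Sparc were then lost at day 7, Col6a2 at day 12, and Col5a1, Col6a3, Col14a1, Serpinh1, Mgp and Tnc at day 18. The median difference of the 49 genes was 0.71, 0.85 and 0.83, beside -0.02, -0.06 and -0.01 over all genes.

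Lumican, the proteoglycan that regulates the assembly of thin fibrils, was read at 6.12, 6.16 and 6.95 on the day 3 arrays. The day 7 arrays read 8.60, 9.94, 10.40 and 10.18, those of day 12 10.44, 9.92 and 10.78, and those of day 18 10.25, 10.33 and 10.21. Each later array was above each day 3 array, and day 7 replicate 1 was the lowest of the later ones. The differences were 3.37 ± 0.36, 3.97 ± 0.38 and 3.85 ± 0.38 (limma adjusted p = 6.25e-05, 2.31e-05 and 2.87e-05), from a mean below background.

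Col5a2 had the tightest starting point, at 7.34, 7.38 and 7.45. Day 7 gave 10.23, 10.47, 10.80 and 10.19, day 12 gave 11.12, 10.63 and 10.77, and day 18 gave 10.81, 10.51 and 10.51. The later arrays were far above day 3 and close to one another. The rises were 3.03 ± 0.20 (8.17-fold), 3.45 ± 0.21 (10.9-fold) and 3.22 ± 0.21 (9.3-fold), with limma adjusted p-values of 1.38e-06, 5.69e-07 and 1.51e-06.

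The type I and type III collagens rose with it. Col1a2 was read at 8.41, 8.40 and 9.21 at day 3 and at 10.96, 11.02, 11.70 and 11.23 at day 7, and Col3a1 at 8.53, 9.18 and 9.72 and then at 11.01, 11.51, 12.04 and 11.45. The days were separate for both genes. Col1a2 rose 5.86-fold, 7.26-fold and 5.98-fold at days 7, 12 and 18, and Col3a1 5.13-fold, 6.89-fold and 5.53-fold (limma adjusted p at day 7 = 4.63e-05 and 0.000209). The 2 further Col3a1 probe sets gave 2.41 and 3.38 at day 7, whereas the further Col1a2 probe set gave 0.14. In all, 5 of the 6 fibrillar collagens rose at day 7. Col1a1 was among them (1.71 ± 0.33, 3.26-fold) but did not pass at day 12 (limma adjusted p = 0.152) or day 18 (0.0916), and Col11a1, a cartilage collagen, was below background. The day 7 call of Col1a1 was lost without the washed-out arrays (1.55, limma adjusted p = 0.0687).

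Of the other interstitial collagens, Col6a1 and Col6a3 rose at each day, by 1.46 and 2.16 at day 7, and Col6a2 and Col14a1 passed at day 12, by 0.84 and 0.71 below background. The Col6a2 call was lost in all 6 fits with 1 array left out and the Col14a1 call in 4 of them, as was its day 18 call (0.65) in 5 of 6. Of the 12 basement membrane genes 4 rose at each day, Col4a1 and Col4a2, which pair in the type IV network, and the laminin chains Lama4 and Lamb1. Col4a1 rose by 1.36 ± 0.22, 1.88 ± 0.23 and 1.95 ± 0.23 (2.56-fold, 3.69-fold and 3.86-fold). Lamb1 went from 5.24, 6.16 and 5.29 at day 3 to 7.89, 8.82, 8.26 and 8.04 at day 7. Day 12 gave 8.53, 8.52 and 8.43, and day 18 gave 8.71, 8.21 and 8.19. No later array came near day 3, and the day 18 difference was 2.81 ± 0.27 (limma adjusted p = 2.45e-05). The means of Lamb2 and Lama2 were below background at every fluid day.

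All 4 processing and crosslinking genes rose at day 7. Lox stood at 4.57, 5.12 and 5.0 at day 3 and at 7.23, 7.60, 8.10 and 8.04 at day 7, entirely apart, a difference of 2.85 ± 0.28 (limma adjusted p = 3.7e-05). Its other probe set gave 0.64. Serpinh1 rose 5.15-fold, Pcolce 2.39-fold and Loxl1 by 1.00 below background. At days 12 and 18 Serpinh1, Lox and Loxl1 passed and Pcolce did not (limma adjusted p = 0.0992 and 0.0745). With 1 array left out the day 7 call of Pcolce was lost in 4 of 7 fits and the day 18 call of Serpinh1 in 4 of 6 (1.14 without the washed-out day 3 replicate 1, limma adjusted p = 0.13).

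Among the proteoglycans, biglycan (Bgn) rose by 2.54 ± 0.25, 2.64 ± 0.27 and 2.54 ± 0.27 at the 3 days (5.81-fold, 6.24-fold and 5.82-fold), and Ogn by 0.65 to 0.84 below background. In the fit of all 49 arrays Ogn passed at none of the 3 days (limma adjusted p = 0.259, 0.105 and 0.083). The other Bgn probe set, also above background, gave 0.98, 1.23 and 1.31. Decorin was read at 9.34, 9.93 and 10.88 on the day 3 arrays. Day 7 gave 10.70, 11.71, 12.43 and 12.54, day 12 gave 12.40, 12.25 and 12.52, and day 18 gave 12.93, 12.60 and 12.35. Day 7 overlapped with day 3 and the later days did not. The day 7 rise of 1.79 ± 0.41 (3.46-fold, limma adjusted p = 0.026) was lost in 4 of the 7 fits with 1 array left out and with the replicate number as a block (1.56, limma adjusted p = 0.0654), while the day 12 and day 18 rises of 2.33 ± 0.44 and 2.57 ± 0.44 (5.05-fold and 5.95-fold) passed in all of theirs.

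Of the elastic fibre and adhesive genes, Fbln2, Mfap5, Sparc, Postn and Tnc rose at each day, and matrix Gla protein (Mgp), an inhibitor of calcification, at days 12 and 18. The day 18 calls of Tnc and Mgp were lost in 5 and 4 of the 6 fits with 1 array left out. Postn was read at 3.78, 3.77 and 4.21 on the day 3 arrays. Day 7 gave 5.29, 6.32, 6.28 and 6.55, day 12 gave 7.1, 7.43 and 7.27, and day 18 gave 6.49, 6.62 and 6.69. The days did not overlap with day 3, and the day 12 arrays were the highest, 3.34 ± 0.25 above day 3 (limma adjusted p = 2.7e-06). Fbln2 rose 5.08-fold, 4.84-fold and 3.68-fold. Sparc, from 6.41 to 8.84 at day 3 and from 9.17 to 10.85 at day 7, rose 4.67-fold, with washed-out arrays the lowest at each of these days.

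**Figure D3:**
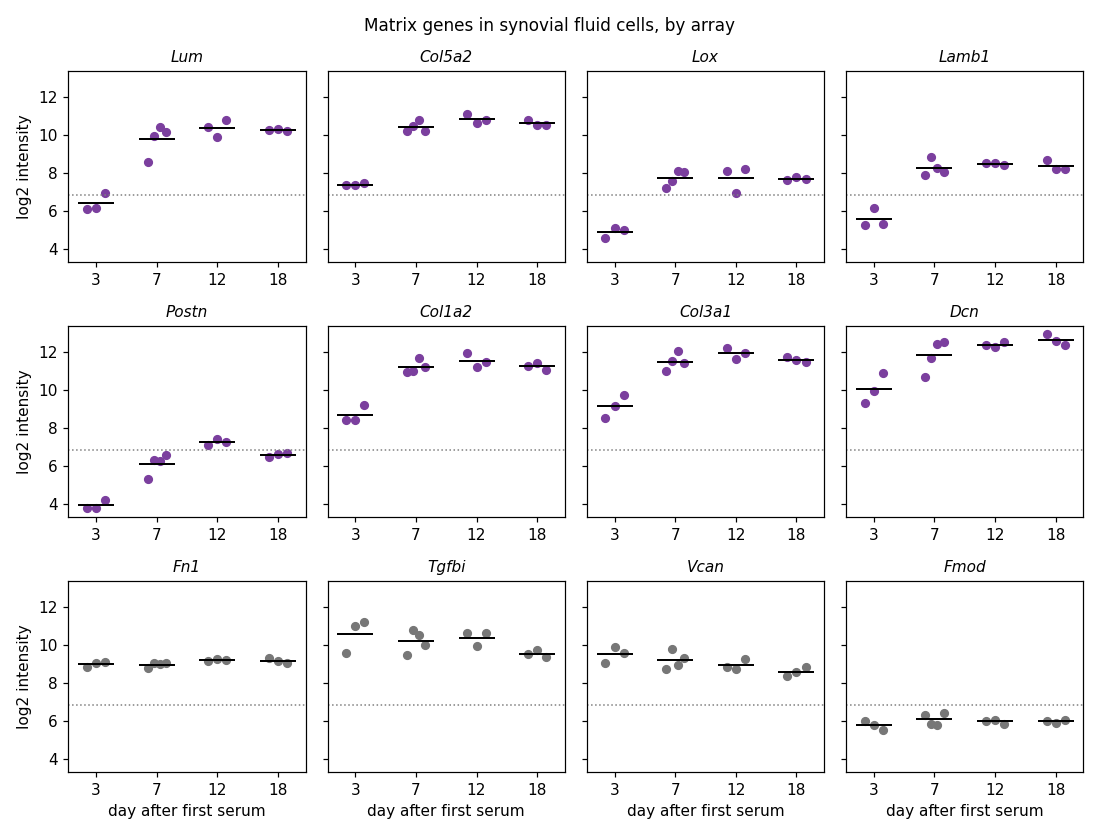
Log2 intensity in synovial fluid cells (vertical axis) of 8 matrix genes that rose after day 3 (purple) and 4 that did not (grey), by day after the first serum (horizontal axis). Each point is 1 array, bars are group means and the dotted line is background at 6.85. Col5a2 lies between 7.34 and 7.45 at day 3 and at 10.19 or above later, and Fn1 between 8.78 and 9.29 throughout.

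A few matrix genes were well expressed in fluid at day 3 and did not rise. Fibronectin (Fn1), which also circulates in plasma, was read at 8.86, 9.06 and 9.13 at day 3 and at 8.78, 9.03, 8.98 and 9.03 at day 7. Tgfbi, an adhesion protein that macrophages also make, ranged from 9.59 to 11.19 and then read 9.50, 10.77, 10.51 and 9.99. Versican was at 9.06, 9.92 and 9.60 and then at 8.74, 9.77, 8.94 and 9.34. The arrays of the 2 days overlapped for each of these genes, and limma's adjusted p was 0.969, 0.835 and 0.802. Perlecan (Hspg2) differed by -0.06, -0.01 and 0.09 at the 3 days. In both arthritic sites Vcan was well above background, but it was higher than at day 0 in ankle and not higher than at day 3 in fluid, 2 comparisons with different starting days whose difference was not tested.

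For Tgfbi and Vcan the day 18 result turned on 1 washed-out array. Tgfbi stood at 9.54, 9.75 and 9.37 and Vcan at 8.38, 8.58 and 8.84, and neither passed (limma adjusted p = 0.203 and 0.0955). Without fluid day 3 replicate 1, the lowest day 3 array for both, Tgfbi was lower by 1.54 (limma adjusted p = 0.0256) and Vcan by 1.16 (0.0493). Without both washed-out arrays, an alternative added once the data had been seen, the counts at days 7, 12 and 18 were 22, 26 and 27, the last made of 25 higher and 2 lower.

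Fibroblast markers rose in fluid together with the matrix genes. Of 7 measured, 3 rose at day 7 (Pdgfra by 2.14, Fap by 2.05 and Dpt by 1.24), 4 at day 12 (Has1 as well, by 1.17) and 3 at day 18. Their summed log2 signal was 9.16 to 9.39 at day 3 and then 10.34 to 10.99, 10.56 to 11.25 and 10.42 to 11.16, while Pdgfrb, Thy1, Pdpn and Fap had means below background at all 4 days. No marker of muscle, cartilage, endothelium, macrophages or leukocytes was called by limma at these days, and among neutrophil markers Mmp9 alone rose, at days 7 and 12. The beta-actin ratio was 1.59 to 2.39 at day 3 and then 2.69 to 2.90, 1.88 to 3.02 and 2.02 to 3.61. With it as a covariate, also added after the data had been seen, the counts were 20, 25 and 21, all higher. The part of fibroblasts in the rise was not tested.

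Genes that work on collagen rose in fluid as well. Of 10 further collagen enzymes, Bmp1 is the procollagen protease that Pcolce enhances and P4ha2 a prolyl 4-hydroxylase. At day 7, 4 of the 10 rose: P3h3 (1.00), Crtap (0.86), Bmp1 (0.73) and P4ha2 (0.60). At day 12 there were 3 and at day 18 there were 2, Bmp1 and Crtap. Of 13 further collagens limma called 0 at any of these days. Of 15 TGF-beta ligands and regulators, Tgfb2 rose at each day (0.87, 1.35 and 1.34), Ccn1 at day 12 (0.64) and Ccn2 at day 18 (2.5). Of 18 matrix receptors the heparan sulfate proteoglycan Sdc2 rose at each day (1.27, 1.65 and 2.06) and the collagen receptor Ddr2 at day 18 (0.74). Tgfb2 and Ccn1 lay below background on both sides.

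In blood leukocytes the matrix genes showed no call after serum. The mean of days 1, 3, 7, 12 and 18 was compared with day 0, limma called 0 of the 49 genes, against 0% of all genes, and the smallest adjusted p was 0.284. At an unadjusted p under 0.05 there were 8 matrix genes and 1444 genes in all. Differences of the 49 ran from -0.18 to 0.63, the last for Lamb1 at a level below background.

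The comparison between tissues asks where the matrix transcripts lie, and in it tissue and preparation cannot be told apart. Ankle was above blood for 46 of the 49 genes and below for 1, against 65.8% of all genes called (29.8% higher). Among the 46 were Col11a1, Col15a1, Nid1, Nid2, Omd, Loxl1 and Thbs2, whose means were below background in every group. Decorin was 8.49 ± 0.07 higher, Sparc 7.53 ± 0.09 and Postn 6.53 ± 0.15, each from a blood level below background: the lowest ankle Dcn array read 12.24 and the highest blood array 4.55. The 1 gene lower in ankle was Col12a1 (-0.17), below background on both sides, and Hspg2 and Ecm1 did not pass. The Col12a1 call was lost in 2 of the 36 fits with 1 array left out and in 3 of 10 other settings. With the mean of all probe sets it was -0.08 (limma adjusted p = 0.161). Hspg2 was above background in every group, at means from 7.75 to 8.44.

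Fluid cells were above blood for 38 genes and below for 0, against 58.8% of all genes (24.8% higher). Among the 38 were Nid1, Nid2, Loxl1 and Thbs2, below background in every group. The largest differences were those of Dcn (7.46 ± 0.17), Sparc (5.49 ± 0.19) and Col5a2 (5.08 ± 0.09). Of the genes described above as well expressed in fluid at day 3 and not rising, Tgfbi was above blood 7.88-fold, Vcan 4.3-fold and Fn1 2.91-fold, and Hspg2 was not called higher. Vcan in blood had a mean below background at 4 of the 6 days.

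Against ankle, fluid was lower for 43 matrix genes and higher for 1, beside 38.1% of all genes called (18.7% higher and 19.4% lower). Among the 43 were Col11a1, Col15a1, Nid1, Nid2, Omd, Loxl1 and Thbs2, below background in every group. The gene higher in fluid was Tgfbi, by 0.62 ± 0.16 (1.54-fold, limma adjusted p = 0.00269), while Col12a1, Hspg2, Vcan, Lox and Ecm1 did not pass. The lowest in fluid relative to ankle were Postn (-4.12 ± 0.19), Tnxb (-3.90 ± 0.24) and Fmod (-3.73 ± 0.14). Over days 3 to 18 the ankle arrays of Fmod ran from 8.20 to 10.59 and the fluid arrays from 5.52 to 6.40. The other Fmod probe set gave -0.42 and the other Tnxb probe set -3.26.

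Day by day, the distance between fluid and ankle was widest at day 3. The median of the 49 day-matched differences was -2.0 at day 3 and then -0.96, -0.80 and -0.92 at days 7, 12 and 18, and fluid was lower for 44, 46, 46 and 46 genes. Lumican went from -3.07 to -0.46 between days 3 and 18, Dcn from -2.77 to -0.04 and Col5a2 from -3.15 to -0.78. Tgfbi and Vcan went the other way, from 1.12 to -0.01 and from 1.23 to -0.61. Periostin, tenascin-X and fibromodulin ended at -3.37, -3.78 and -4.09. These values describe group means, and their change between days was not tested.

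**Figure D4:**
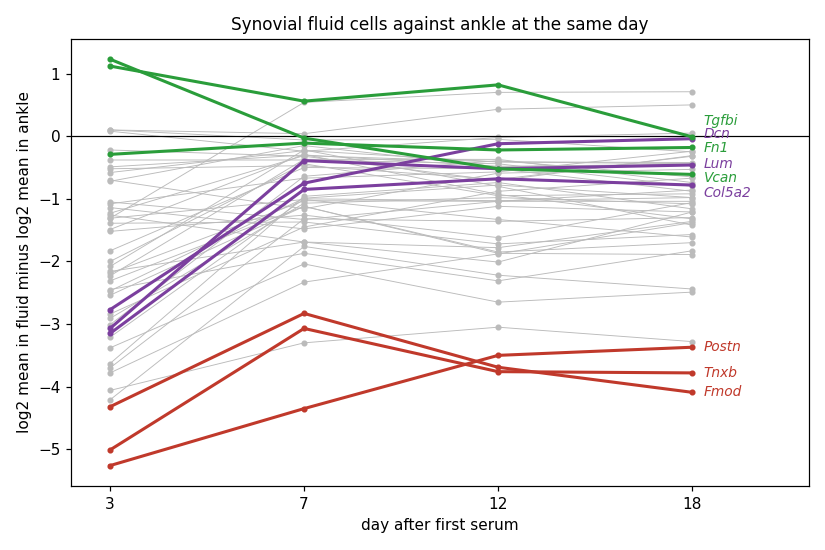
Log2 mean in fluid cells minus log2 mean in ankle (vertical axis) at the same day (horizontal axis), 1 line for each of the 49 matrix genes. The median line value rises from -2.0 at day 3 to -0.96 at day 7, Tgfbi and Vcan (green) start above 0 and Fn1 (green) at -0.29, Lum, Dcn and Col5a2 (purple) approach 0, and Postn, Tnxb and Fmod (red) stay at -2.83 or lower.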

How the data were processed

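The deposited table holds 1 intensity per probe set and array on the linear scale, which the authors obtained by RMA per the submitters' processing notes. RMA includes a background correction and quantile normalization, and low signals lose contrast in it. No version of it was stated in the sources used here. Of 12488 probe sets, 10833 had 1 gene symbol in the platform annotation, 396 had several and 1237 had none. Each tissue's log2 intensities were fitted by limma 3.58.1 (R 4.3.3; lmFit, then eBayes with trend), a mean being estimated for every day, and tissues were compared in fits of the pair through the mean of day-matched differences. P-values are two-sided and adjusted by Benjamini-Hochberg over all 8251 genes, with a threshold of 0.05. The procedure was tested on simulated data. The number of arrays limits the precision.

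Array by array the text gives, for the ankle at days 7 and 18, up to 4 genes with the largest rise and 4 with the largest fall past the threshold, the member of each role with the highest ankle signal, and up to 3 in each direction elsewhere. Vcan, Lamb1, Lum, Col1a2, Col3a1, Dcn, Fn1, Tgfbi and Sparc were also given where this rule did not name them, after their values were seen. The members, lists and alternatives were chosen with earlier results of these data known. By correlated deviations from the group means, replicate numbers were taken to pair samples in ankle day 3 with day 0 (r from 0.20 to 0.54). The same held for fluid day 7 with day 3 (0.53 to 0.68). Ankle day 1 with day 0 (0.71 and 0.73) has 2 pairs, too few to decide. The others had a lowest r of 0.06 or less and were not taken as paired. Samples with different numbers were not compared. As a block the number left both counts at 0 and 24, but in fluid Dcn was lost and Col6a2 gained (0.85, limma adjusted p = 0.0102).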

Additional observations from a re-analysis of the deposited data

Results flagged for a closer look

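Dixon's criterion was applied to 60 groups of 4 arrays, over the 20 genes that the rule above named for array-by-array values. These include Col12a1, whose arrays are not given, and leave out Col3a1 and Fn1. In 4 groups an array stood apart, which chance gives in about 1 in 20 groups. The Col1a2 reading of 11.28 in ankle day 7 replicate 3 was low against 12.39 to 12.61 on the other 3 arrays. Col4a1 read 11.29 in ankle day 0 replicate 1, above 10.76 to 10.84, and 9.24 in fluid day 7 replicate 1, a washed-out sample, below 9.68 to 9.71. Pcolce read 9.79 in ankle day 0 replicate 1, below 10.11 to 10.13.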

How the results depend on the processing

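Counts are of the 49 matrix genes called. Leaving out 1 array at a time gave 8 to 13 calls in ankle at day 7, 4 to 14 at day 12 and 2 to 6 at day 18, 0 at days 1 and 3 and at day 18 against day 7, 21 to 25, 23 to 25 and 19 to 25 in fluid at days 7, 12 and 18, 0 in blood, and 43 to 45, 38 to 39 and 46 to 47 for fluid against ankle, fluid against blood and ankle against blood. The ankle counts depended most on the settings. A fit of all 49 arrays gave 16 at day 12, 12 at day 18 and 1 for day 18 against day 7, fresh quantile normalization gave 5 at day 18, and the beta-actin ratio as a covariate gave 7 at day 7 and 4 at day 12. With the replicate number as a block there were 13 at day 12 and 12 at day 18. Same-number deviations there correlated with day 0 at r from 0.06 to 0.26 and from -0.07 to 0.28, so pairing was not settled. Replicate 1 of ankle days 0, 1, 7 and 12 was also left out for its albumin signal. Ankle then had 7 higher and 6 lower at day 7, 6 and 1 at day 12 and 2 and 0 at day 18. Among called genes 1 reversed: Col18a1 in fluid against blood was -0.01 (limma adjusted p = 0.925) with the mean of all its probe sets. For all of these the cause was not tested. Signal over background limits the genes below 6.85, and 2 to 4 arrays a group limit every other.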
